A study of Mus musculus with 6 samples.

Results

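The 10 genes examined here encode costimulatory and inhibitory receptors of T cells (Cd28, Icos, Ctla4, Pdcd1, Btla, Lag3, Tigit, Havcr2 and Cd160) and the surface ligand CD200 (Cd200). They were taken by gene name from the read count table, which lists 55536 genes. All 10 passed the low-count filter and were among the 15519 genes tested, with 285 to 45866 counts in a library. Low-input RNA sequencing was used on 6 libraries of CD4+ T cells, 3 from HDAC1-cKO donors (2D2-Hdac1fl/fl-Cd4-Cre+) and 3 from WT donors (2D2-Hdac1fl/fl-Cd4-Cre-), all of the C57BL/6 strain. The cells of both groups carried floxed Hdac1 alleles and the 2D2 transgene, a T cell receptor that recognises myelin oligodendrocyte glycoprotein (MOG). They differed in Cre recombinase under the Cd4 promoter, which is active from T cell development in the thymus on. HDAC1, a histone deacetylase, was therefore removed before the cells were transferred. Naive CD45.2+ donor cells were injected into a vein of CD45.1+ mice, and the labels name no depletion of the recipients' own lymphocytes. After 18 hours the recipients were immunised in the footpad with MOG peptide in complete Freund's adjuvant. Draining popliteal lymph nodes were taken 4 days after immunisation, and 500 donor cells were sorted for each library from a pool of 2 mice. Ages of the animals were not given in the sources used here.

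CD28 and ICOS are costimulators: when their ligands on antigen-presenting cells bind, they recruit phosphoinositide 3-kinase and adaptor proteins and add to the signal of the T cell receptor. CTLA-4 competes with CD28 for the ligands CD80 and CD86, while PD-1 (Pdcd1), BTLA, LAG-3, TIGIT, TIM-3 (Havcr2) and CD160 dampen activation through ligands of their own, PD-1 and BTLA by recruiting phosphatases. Activated CD4+ T cells induce most of these receptors within days, and follicular helper T (Tfh) cells, which assist B cells, carry high levels of PD-1, ICOS, BTLA and CD200.

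Hdac1 was counted at 17.2, 14.7 and 15.4 CPM (counts scaled to the library total) in HDAC1-cKO replicates 1, 2 and 3 and at 234, 236 and 244 CPM in WT replicates 1, 2 and 3, which left 6.63% of the WT level. Its log2 fold change (HDAC1-cKO minus WT, as throughout) was -3.91 ± 0.12 (SE, adjusted p = 9.59e-06 in edgeR). Libraries held 19956153 to 55900237 counts. HDAC1-cKO replicate 2 stood apart: over 8345 genes, which are not independent replicates, its deviations from the all-library mean followed GC content with a Pearson r of 0.586, where the other 5 libraries had -0.281 to -0.073. Of the 10 CD4+ T cell markers all were counted in each library, with Trac at 3283 to 4218 CPM and Cd4 at 138 to 239 CPM. Of these markers, which include the member Cd28, 9 had a negative fold change and only Cd4 a positive one, with a median log2 fold change of -0.33. Cd3e, a subunit of the T cell receptor complex, was called lower (-1.42, adjusted p = 0.0102 in edgeR), a call that ended when WT replicate 3 or either of HDAC1-cKO replicates 1 and 3 was left out. The marker sum was 24549 to 33448 CPM in HDAC1-cKO and 28699 to 34530 CPM in WT. Summed over 11 genes each, B or plasma cell markers reached 39.2 to 74.1 CPM in HDAC1-cKO and 18.0 to 51.8 CPM in WT. CD8 T or NK cell markers reached 343 to 793 and 274 to 1197 CPM, with Ncr1 and Klra8 at 0 counts in every library. The 13 myeloid or dendritic cell markers summed to 6.29 to 9.26 CPM in HDAC1-cKO and to 17.8 to 37.0 CPM in WT, with Csf1r, Cd14, Flt3, Clec9a and Cd209a at 0 throughout. Whether cells of another type contributed to any of the differences described here was not tested.

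Most members leaned lower in HDAC1-cKO, but Btla was the only one of the 10 that passed the test across all genes. It fell to 46.6% of its WT level, and 0 members rose. At an unadjusted p under 0.05, Btla and Cd28 were lower and 0 members higher in edgeR, against 17.01% of all genes in both directions. Across all genes 1.97% passed in either direction and 0.992% were lower, with 152 genes higher and 154 lower (quasi-likelihood test of edgeR, Benjamini-Hochberg adjusted, under 0.05). The fold change was negative for 8 of 10 members, Lag3 being at zero to 2 decimals, and for 7802 of the 15519 genes. The median log2 fold change was -0.48 over the members and -0.002 over all genes tested. Leaving out HDAC1-cKO replicate 2 moved the median of the members to -0.32, and leaving out replicate 1 to -0.64. The CD4+ T cell markers leaned lower as well, as given above, and their part in this was not tested. Only Btla and Icos had all 3 HDAC1-cKO libraries below all 3 WT libraries, so 2 of 10 members separated by genotype, while 24.6% of all genes did in one direction or the other. In bulk RNA, a lower level per cell cannot be told apart from fewer cells that express the gene.

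**Figure D1:**
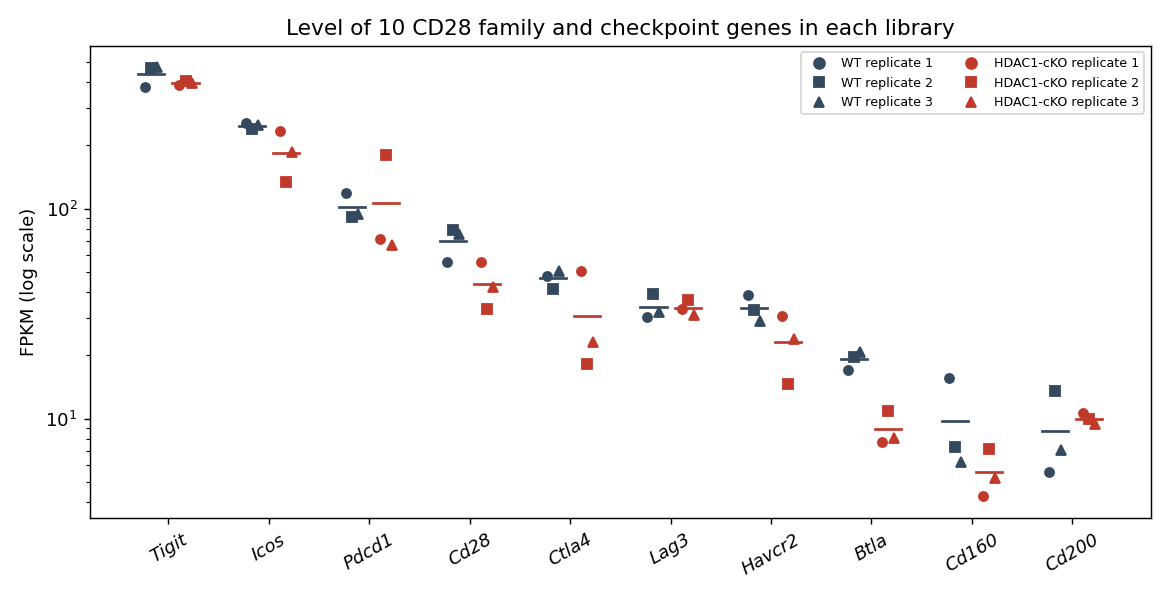
Deposited FPKM of each of the 10 genes on a log axis, ordered by the WT mean, with each library as a point (WT dark, HDAC1-cKO red, replicates by symbol) and the group mean as a bar. Tigit and Icos lie highest and Cd160 and Cd200 lowest, the HDAC1-cKO points of Btla all lie under its WT points, and HDAC1-cKO replicate 2 (red square) is highest for Pdcd1 and lowest for Ctla4, Havcr2, Icos and Cd28.

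Relative levels of the genes were compared with the deposited FPKM, which divide by length. TIGIT and ICOS transcripts were the most abundant in WT cells. Tigit stood at 439 ± 51.3 FPKM and Icos at 248 ± 7.25 FPKM (SD, n = 3 libraries). Pdcd1 followed at 102 ± 15.2, Cd28 at 70.2 ± 12.8 and Ctla4 at 46.5 ± 4.55 FPKM (SD, n = 3). The WT libraries of each of these 5 genes lay apart from those of the next gene in the order. Lag3 at 33.9 ± 4.54 and Havcr2 at 33.7 ± 4.88 FPKM overlapped, so their order is not settled by 3 libraries. Btla stood below them at 19.1 ± 1.86 FPKM, and Cd160 at 9.70 ± 5.08 overlapped Cd200 at 8.70 ± 4.20 FPKM (SD, n = 3). In HDAC1-cKO the means of the first 4 genes kept this order, but the libraries of Icos (134 to 234 FPKM) and Pdcd1 (67.0 to 181 FPKM) overlapped. Lag3 moved ahead of Ctla4 and Cd200 ahead of Btla there, with means of 33.7 ± 2.78 against 30.7 ± 17.5 FPKM and 9.998 ± 0.614 against 8.88 ± 1.72 FPKM (SD, n = 3), and the libraries of Lag3 and Ctla4 as well as those of Cd200 and Btla overlapped.

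CD28, the main costimulator of naive T cells (ENSMUSG00000026012, chromosome 1, 60716800 to 60773359, plus strand, GRCm38), was counted at 246, 148 and 186 CPM in HDAC1-cKO replicates 1, 2 and 3 and at 245, 349 and 331 CPM in WT replicates 1, 2 and 3. HDAC1-cKO replicate 1 lay level with WT replicate 1 and the other 4 libraries were split by genotype. Cd28 had a log2 fold change of -0.67 ± 0.21 (SE, 95% interval -1.15 to -0.20, adjusted p = 0.144 in edgeR), which did not pass. The same gene passed with DESeq2 and with limma-voom with sample weights (adjusted p = 0.0308 and 0.0318), at fold changes of -0.68 and -0.65.

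ICOS, the costimulator that is induced by activation (ENSMUSG00000026009, chromosome 1, 60977927 to 61000320, plus strand), was counted at 814, 468 and 645 CPM in HDAC1-cKO and at 887, 833 and 863 CPM in WT, in replicate order. All HDAC1-cKO libraries lay under all WT libraries, with means of 643 ± 173 CPM against 861 ± 26.7 CPM in WT (SD, n = 3). The log2 fold change was -0.42 ± 0.18 (SE, 95% interval -0.85 to 0.00, adjusted p = 0.294 in edgeR). Replicate 2 was the lowest HDAC1-cKO library for both costimulators, and without it their fold changes were -0.52 for Cd28 and -0.25 for Icos (adjusted p = 0.165 and 0.246 in edgeR).

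BTLA, an inhibitory receptor that binds HVEM (Tnfrsf14) and recruits the phosphatases SHP-1 and SHP-2 (ENSMUSG00000052013, chromosome 16, 45224315 to 45257670, plus strand), was the member that fell. Btla was counted at 25.5, 35.9 and 26.6 CPM in HDAC1-cKO replicates 1, 2 and 3 and at 56.3, 64.6 and 67.6 CPM in WT replicates 1, 2 and 3. The highest HDAC1-cKO library, replicate 2, remained well under the lowest WT library. The means were 29.3 ± 5.74 and 62.8 ± 5.87 CPM (SD, n = 3), and Btla fell by 1.10 ± 0.17 log2 units (SE, 95% interval -1.49 to -0.71, adjusted p = 0.0275 in edgeR). Leaving out HDAC1-cKO replicate 2 gave -1.28 with an adjusted p of 0.00844 in edgeR. Leaving out any 1 of the other 5 libraries ended the call, with fold changes from -1.18 to -1.01 and edgeR adjusted p from 0.0567 to 0.121. Removing the GC trend of each library gave -0.87 and ended it as well (adjusted p = 0.108 in edgeR). So did a fit with the replicate number as a block.

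The stretch before the start of Btla is shown because this is the member that fell, and that of Trat1 because this partner of CTLA-4, described below, had the lowest fold change among the genes called around the members. Each holds 250 bases upstream of the RefSeq start on GRCm38.p6, read 5′ to 3′ on the strand of the gene, from chr16:45224087-45224336 (plus strand) and chr16:48772063-48772312 (minus strand). Capitals mark matches, on either strand, to 5 motifs: GGGCGG, known as the GC box, TATAAA, where the basal transcription machinery can bind, TGANTCA, which AP-1 can bind, GGAAA, the core of NFAT sites, and TGTGGT, which RUNX factors can bind.
Btla: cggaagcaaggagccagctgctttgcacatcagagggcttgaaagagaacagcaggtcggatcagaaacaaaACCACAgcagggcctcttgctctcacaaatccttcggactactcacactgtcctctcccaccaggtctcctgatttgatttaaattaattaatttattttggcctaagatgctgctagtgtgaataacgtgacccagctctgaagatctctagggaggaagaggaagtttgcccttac
Trat1: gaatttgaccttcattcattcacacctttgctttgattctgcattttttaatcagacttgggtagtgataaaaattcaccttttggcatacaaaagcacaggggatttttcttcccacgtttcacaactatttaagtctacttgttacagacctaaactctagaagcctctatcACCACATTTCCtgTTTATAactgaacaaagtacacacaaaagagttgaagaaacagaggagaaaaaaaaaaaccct
The Btla stretch holds 1 match, to the RUNX letters on the opposite strand, that begins 178 bases before the start. The Trat1 stretch holds RUNX letters at -76, directly followed by the NFAT core at -70, and the letters of TATAAA at -63, all on the opposite strand. RefSeq promoters matched 7 of the 10 members with 8 windows, 2 of them for Cd160. The RUNX letters occurred in 5 of the 8 windows (Btla, Tigit, Havcr2 and both of Cd160), against 14.0% of all 32851 promoter windows of the same length. The GC box occurred in 3 windows (32.7% of all), the NFAT core in 4 (55.6%), AP-1 in 1 (6.75%) and TATAAA in 0 (12.4%). E-box letters, CANNTG, were in 5 windows against 66.2% and are not capitalised. In Tigit the E-box match at -138 overlaps the RUNX match at -140. A match describes the letters only, and no factor binding or acetylation was measured.

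CTLA-4, which competes with CD28 for ligand (ENSMUSG00000026011, chromosome 1, 60887000 to 60915832, plus strand), was counted at 99.3, 35.7 and 45.6 CPM in HDAC1-cKO and at 94.1, 81.0 and 97.8 CPM in WT. HDAC1-cKO replicate 1 exceeded every WT library, while replicates 2 and 3 lay under all of them. The log2 fold change of Ctla4 was therefore uncertain, at -0.59 ± 0.34 (SE, 95% interval -1.38 to 0.20, adjusted p = 0.439 in edgeR). It was -1.17 without HDAC1-cKO replicate 1 (adjusted p = 0.0670 in edgeR) and -0.33 without replicate 2 (adjusted p = 0.608 in edgeR). PD-1 is the receptor that dampens T cell receptor and CD28 signals (ENSMUSG00000026285, chromosome 1, 94038305 to 94052553, minus strand). Against WT, Pdcd1 lay opposite to Ctla4 in HDAC1-cKO replicates 1 and 2, while replicate 3 was under all WT libraries for both genes. Pdcd1 was counted at 141, 355 and 131 CPM in HDAC1-cKO and at 233, 178 and 184 CPM in WT. Replicate 2 was the highest of all 6 libraries and replicates 1 and 3 were the lowest. With all libraries the log2 fold change was 0.08 ± 0.36 (SE, 95% interval -0.75 to 0.91, adjusted p = 0.947 in edgeR), while the 5 libraries other than HDAC1-cKO replicate 2 gave -0.55 (adjusted p = 0.0701 in edgeR). The sign also turned without WT replicate 2 (-0.0091) and in 5 of the 13 alternatives that used all libraries, so the direction of Pdcd1 was not settled, and no fit passed the threshold.

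The sequences before the starts of Ctla4 and Pdcd1 are set side by side because these genes went opposite ways in HDAC1-cKO replicate 2, the library with the GC trend. They cover chr1:60908775-60909024 (plus strand) and chr1:94052554-94052803 (minus strand) and are marked as above. The GENCODE gene model of Ctla4 begins further upstream, so that this stretch lies inside it.
Ctla4: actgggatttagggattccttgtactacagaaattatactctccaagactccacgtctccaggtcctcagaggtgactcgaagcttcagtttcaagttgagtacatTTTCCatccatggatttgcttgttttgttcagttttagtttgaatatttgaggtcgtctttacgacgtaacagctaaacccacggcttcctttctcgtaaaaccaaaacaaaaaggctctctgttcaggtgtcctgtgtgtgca
Pdcd1: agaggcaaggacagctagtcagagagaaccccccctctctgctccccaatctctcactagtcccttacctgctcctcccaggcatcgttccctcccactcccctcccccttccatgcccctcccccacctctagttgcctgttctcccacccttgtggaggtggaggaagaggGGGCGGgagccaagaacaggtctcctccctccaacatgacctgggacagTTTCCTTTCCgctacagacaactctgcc
GC content was 42.4% with 7 CpG in the Ctla4 stretch and 60.4% with 3 CpG in that of Pdcd1, where the medians over all promoters were 52.4% and 6. Ctla4 holds 1 NFAT core match, at -144. Pdcd1 holds a GC box at -77 and NFAT core letters at -28 and -23. The transcripts had 42.6% GC in Ctla4 and 54.6% in Pdcd1. With the GC trend removed, replicate 2 still differed from the mean of the other HDAC1-cKO libraries. The log2 difference moved from 1.39 to 1.16 for Pdcd1 and from -0.91 to -0.54 for Ctla4. The part of base composition in the split was not tested.

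LAG-3, an inhibitory receptor for MHC class II (ENSMUSG00000030124, chromosome 6, 124904361 to 124911705, minus strand), did not separate by genotype. Lag3 was counted at 67.2, 74.8 and 63.4 CPM in HDAC1-cKO and at 61.6, 78.8 and 65.0 CPM in WT, and the libraries interleaved. Its mean was the same in both groups to 3 digits (68.5 CPM, adjusted p = 0.9997 in edgeR). The 95% interval of its log2 fold change reached from -0.32 to 0.31. TIGIT, which binds the poliovirus receptor CD155 (Pvr) and nectins in competition with CD226 (ENSMUSG00000071552, chromosome 16, 43648867 to 43664146, minus strand), was counted at 359, 379 and 371 CPM in HDAC1-cKO and at 355, 434 and 436 CPM in WT. WT replicate 1 lay under all 3 HDAC1-cKO libraries and the other WT libraries above them. Tigit had a log2 fold change of -0.14 ± 0.11 (SE, 95% interval -0.40 to 0.11, adjusted p = 0.586 in edgeR). For Lag3 and Tigit these intervals bound any difference more tightly than for the other uncalled members, and they hold no fold change beyond -0.40 or 0.31.

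TIM-3, a receptor for galectin-9 that marks Th1 effector cells (ENSMUSG00000020399, chromosome 11, 46454935 to 46481255, plus strand), was counted at 85.2, 40.3 and 65.8 CPM in HDAC1-cKO and at 107, 90.2 and 80.2 CPM in WT. Only HDAC1-cKO replicate 1 reached into the WT range. Havcr2 had a log2 fold change of -0.54 ± 0.26 (SE, 95% interval -1.13 to 0.05, adjusted p = 0.340 in edgeR). It was -0.81 without HDAC1-cKO replicate 1 and -0.30 without replicate 2 (adjusted p = 0.188 and 0.354 in edgeR). CD160, a glycolipid-anchored receptor that shares the ligand HVEM with BTLA (ENSMUSG00000038304, chromosome 3, 96798763 to 96829351, minus strand), was counted at 11.4, 19.2 and 14.0 CPM in HDAC1-cKO and at 41.7, 19.6 and 16.6 CPM in WT. WT replicate 1 stood far above the other 5 libraries, which interleaved. That library also had the highest sum of CD8 T or NK cell markers, 1197 CPM against 274 and 281 CPM in the other WT libraries and 793, 343 and 487 CPM in HDAC1-cKO, and the part of such cells in the Cd160 value was not tested. For Cd160 the log2 fold change was -0.80 ± 0.36 (SE, 95% interval -1.64 to 0.04, adjusted p = 0.315 in edgeR) and -0.29 without WT replicate 1 (adjusted p = 0.648 in edgeR). Its exons overlap those of Pdzk1 on the other strand over 2.57% of their bases, and Pdzk1 itself had 0.188 and 0.547 CPM in HDAC1-cKO and WT.

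CD200, the 1 ligand among the members, binds the inhibitory receptor CD200R (ENSMUSG00000022661, chromosome 16, 45382135 to 45409053, minus strand). Cd200 was counted at 25.3, 23.6 and 22.4 CPM in HDAC1-cKO and at 13.2, 31.9 and 16.8 CPM in WT. The HDAC1-cKO libraries lay close together inside the wide WT range. The log2 fold change was 0.20 ± 0.31 (SE, 95% interval -0.50 to 0.91, adjusted p = 0.804 in edgeR), and it was, without WT replicate 1, -0.04 (adjusted p = 0.960 in edgeR).

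**Figure D2:**
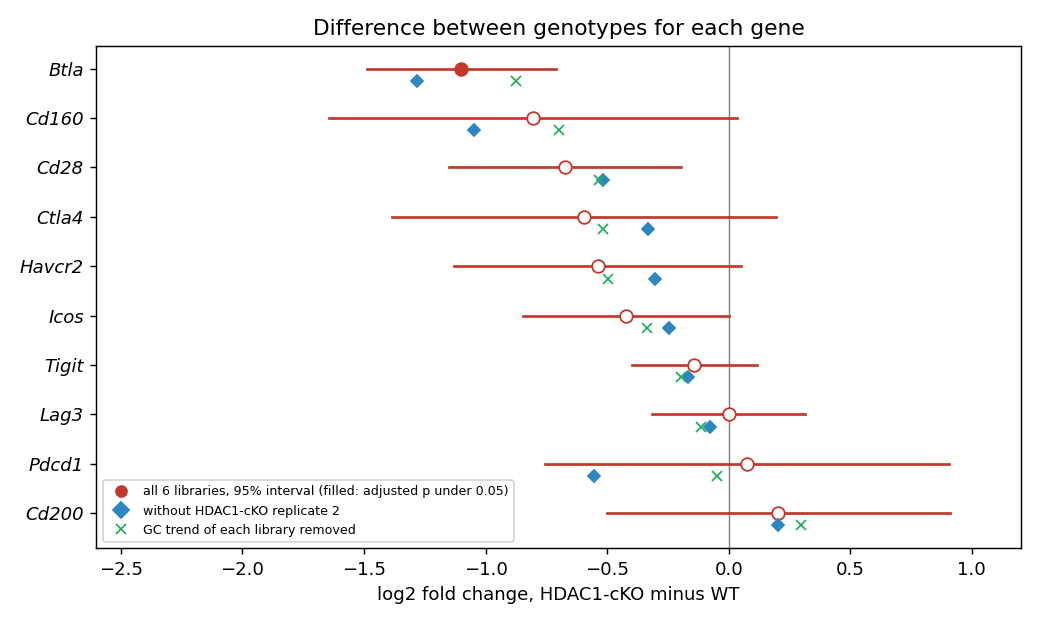
Log2 fold change (HDAC1-cKO minus WT) of each of the 10 genes with its 95% interval (circle and line, filled where the edgeR adjusted p was under 0.05), and the same value without HDAC1-cKO replicate 2 (diamond) and with the GC trend of each library removed (cross). Btla alone is filled, the intervals of Btla and Cd28 lie below 0, that of Icos ends at 0, and the Pdcd1 value moves from 0.08 to -0.55 without HDAC1-cKO replicate 2.

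Ligands and counter-receptors of the members were mostly rare in these sorted T cells, apart from Lgals3, Lgals9 and Hmgb1, and 1 of them fell. Of 15 listed genes 12 were tested, 8 were negative and the median log2 fold change was -0.55. This median was -0.28 without HDAC1-cKO replicate 3, -0.31 over the 5 genes left by a 10 CPM filter and -0.98 with limma-voom with sample weights. In edgeR 7 of the 12 had an unadjusted p under 0.05, 5 lower and 2 higher, against 17.01% of all genes in both directions. The list was chosen with earlier results of these data known. DESeq2 and limma-voom each called Cd80 higher and Cd274, Pdcd1lg2 and Cd200r1 lower, where edgeR called Cd200r1 alone. Over all genes DESeq2 made 1368 calls, limma-voom 1589 and edgeR 306. Cd200r1, the receptor for the member CD200, was counted at 6.59, 11.6 and 10.7 CPM in HDAC1-cKO and at 31.4, 20.8 and 34.1 CPM in WT (chromosome 16, 44765736 to 44794978, plus strand). All WT libraries lay above all HDAC1-cKO libraries, and it fell by 1.58 ± 0.27 log2 units (SE, adjusted p = 0.0334 in edgeR), to 33.5% of the WT level. Its call ended when the GC trend was removed (adjusted p = 0.0628 in edgeR) and whenever a library other than HDAC1-cKO replicate 2 was left out (up to 0.130). The call was also lost with the replicate number as a block. Cd200r1 is also expressed by myeloid cells, whose marker sum was lower in HDAC1-cKO as given above, and the part of such cells in this result was not tested. Pdcd1lg2, which encodes the PD-1 ligand PD-L2, was next, at 3.01, 3.59 and 2.55 against 14.3, 5.74 and 6.69 CPM (-1.54 ± 0.38, SE, adjusted p = 0.0844 in edgeR). Cd80 and Cd274, chosen after their values were seen, encode a ligand of CD28 and CTLA-4 and the PD-1 ligand PD-L1. Cd80 was counted at 7.30, 3.05 and 7.06 against 1.48, 2.65 and 1.55 CPM and Cd274 at 6.16, 14.6 and 6.86 against 16.4, 24.2 and 19.9 CPM. Like Cd200r1, each separated by genotype, as did 24.6% of all genes in one direction or the other. Cd80 and Cd274 went in opposite directions, with log2 fold changes of 1.603 ± 0.41 and -1.12 ± 0.34 (SE, adjusted p = 0.0925 and 0.141 in edgeR).

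Of 13 tested genes for other coinhibitory and paired receptors, 11 were negative, with a median of -0.55, and 0 passed in edgeR. At an unadjusted p under 0.05 there were 3, all lower (Cd226, Cd96 and Pdcd1lg2, which is on both lists), against 17.01% of all genes in both directions. DESeq2 called 3 genes of the list lower and limma-voom with sample weights 5, against 664 of 25819 and 819 of 15519 over all genes. The 25819 are all genes with a count, and DESeq2 can leave those with low counts without an adjusted p. Its share over all genes is therefore a lower bound. Without HDAC1-cKO replicate 2 edgeR called Vsir, Cd96, Cd5 and Cd101 lower and the median was -0.89. That fit called 368 of 16147 genes lower in all. CD96 shares the ligand CD155 with TIGIT. It was counted at 24.4, 52.3 and 21.3 CPM in HDAC1-cKO and at 66.5, 72.9 and 83.1 CPM in WT. All HDAC1-cKO libraries lay below all WT libraries, where 24.6% of all genes separated in one direction or the other. The log2 fold change of Cd96 was -1.18 ± 0.32 (SE, adjusted p = 0.109 in edgeR) and -1.71 without HDAC1-cKO replicate 2 (adjusted p = 0.00594 in edgeR).

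Signalling genes downstream of CD28 and ICOS were negative in 25 of 28 cases, with a median of -0.29, and 1 was called. In edgeR 8 of the 28 had an unadjusted p under 0.05, all lower, against 17.01% of all genes in both directions. This list, too, was chosen with earlier results known. DESeq2 called 5 lower, limma-voom with sample weights 7 and edgeR without HDAC1-cKO replicate 2 6. Over all genes these fits called 664 of 25819, 819 of 15519 and 368 of 16147 lower, where the 25819 are again all genes with a count. Lcp2 encodes SLP-76, the adaptor that links the T cell receptor and CD28 to phospholipase C. It was counted at 361, 432 and 334 CPM in HDAC1-cKO and at 613, 541 and 603 CPM in WT, without overlap, and fell by 0.64 ± 0.12 log2 units (SE, adjusted p = 0.0444 in edgeR). This call ended with upper-quartile or total count scaling, with the GC trend removed and whenever 1 library was left out, HDAC1-cKO replicate 2 excepted (adjusted p up to 0.167 in edgeR). It also ended with the replicate number as a block. Exons of 4930469K13Rik on the other strand cover 6.32% of those of Lcp2, and that gene had 0.0416 and 0.228 CPM in HDAC1-cKO and WT. Prkcq, the protein kinase C theta of the CD28 pathway, was counted at 242, 262 and 216 against 321, 357 and 346 CPM, also without overlap (-0.51 ± 0.11, SE, adjusted p = 0.0602 in edgeR). Of all genes, 24.6% had no overlap in one direction or the other.

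The genes for signalling and trafficking of inhibitory receptors held most of the calls around the members: 4 of 26 fell, 0 rose, 21 were negative and the median was -0.28. Over all genes 0.992% were called lower, and with a 10 CPM filter 4 of 22 were, against 226 of 8413 over all genes. In edgeR 9 of the 26 had an unadjusted p under 0.05, 8 lower and 1 higher, against 17.01% of all genes in both directions. As the 5 lists were chosen with earlier results of these data known, these shares are no separate support. DESeq2 called 5 of the list lower and limma-voom with sample weights 7. Over all genes they called 664 of 25819 genes with a count and 819 of 15519. Trat1 (TRIM), a transmembrane adaptor that carries CTLA-4 to the cell surface (chromosome 16, 48730774 to 48772021, minus strand), was counted at 6.81, 14.9 and 7.64 CPM in HDAC1-cKO and at 28.0, 49.7 and 38.8 CPM in WT. It fell by 1.98 ± 0.34 log2 units (SE, adjusted p = 0.0334 in edgeR), to 25.2% of WT. Dok2, an adaptor that restrains Ras signals of the T cell receptor, was counted at 118, 198 and 134 against 388, 342 and 384 CPM and fell by 1.30 ± 0.19 (SE, adjusted p = 0.0249 in edgeR). Pag1, the raft adaptor that holds the inhibitory kinase Csk at the membrane, was counted at 9.88, 12.5 and 14.7 against 31.1, 35.0 and 23.0 CPM and fell by 1.27 ± 0.22 (SE, adjusted p = 0.0334 in edgeR). The phosphatase gene Ptpn22, whose product works with Csk against Lck, was counted at 176, 149 and 177 against 262, 282 and 250.2 CPM and fell by 0.66 ± 0.11 (SE, adjusted p = 0.0324 in edgeR). The genotypes did not overlap in any of these 4 genes, where 24.6% of all genes separated in one direction or the other. As they were picked by their calls in the same libraries, this is no separate support. Genes for the phosphatases that PD-1 and BTLA recruit did not pass: Ptpn6 (SHP-1) differed by 0.19 ± 0.17 and Ptpn11 (SHP-2) by 0.38 ± 0.16 log2 units (SE, adjusted p = 0.654 and 0.258 in edgeR), both named after their values were seen. The Trat1 call ended with the GC trend removed (adjusted p = 0.0873 in edgeR), and all 4 were lost whenever a library other than HDAC1-cKO replicate 2 was left out (adjusted p up to 0.145 in edgeR). With the replicate number as a block, Trat1 alone of these 4 stayed called.

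**Figure D3:**
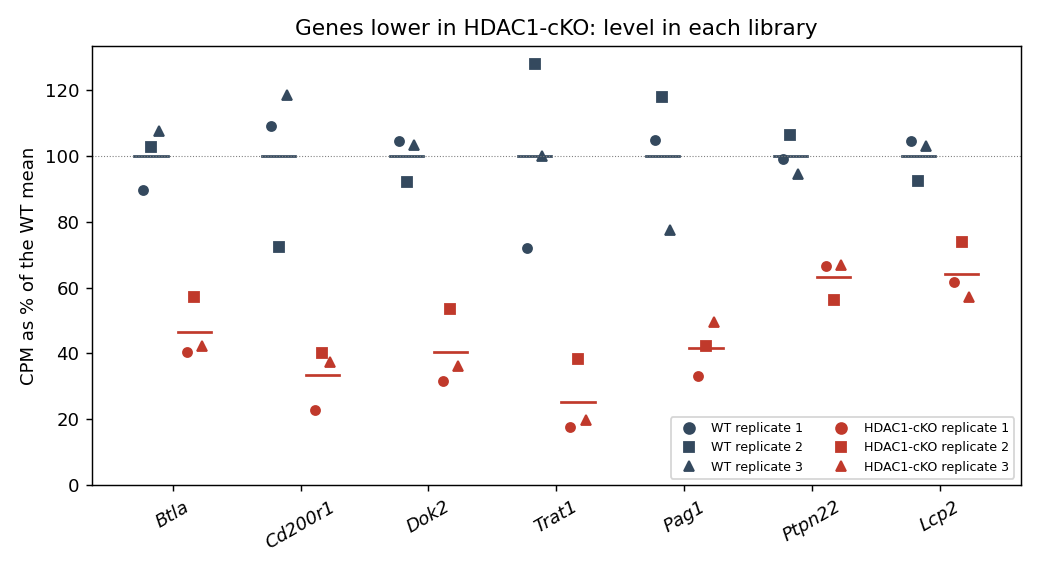
CPM of the 7 members and pathway genes that fell, as a percentage of the WT mean of the same gene, with libraries as points and group means as bars. In each gene all 3 HDAC1-cKO points lie under all 3 WT points, and the HDAC1-cKO means run from 25.2% (Trat1) to 64.2% (Lcp2) of WT. The genes are shown because they were called lower in these libraries, which makes such separation likely and no separate support.

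**Figure D4:**
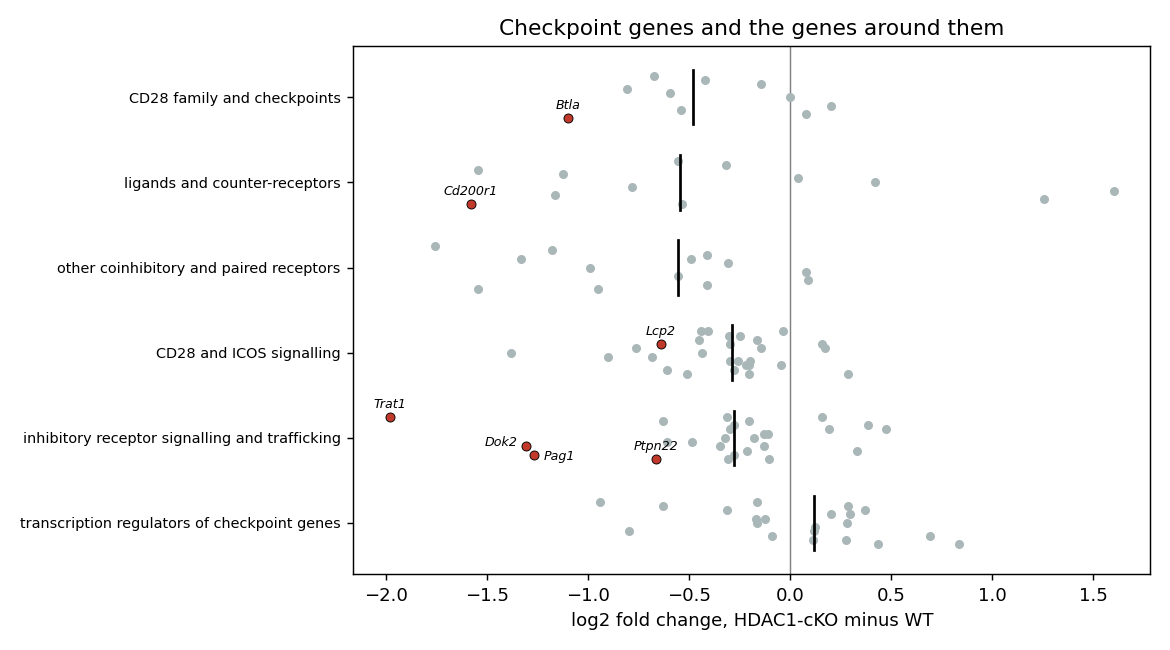
Log2 fold change (HDAC1-cKO minus WT) of every tested gene of the 10 members and the 5 surrounding lists, with called genes red and named and the median of each list as a bar. The medians lie between -0.55 and -0.28 in 5 rows and at 0.12 for the transcription regulators.

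Transcription factors known to act on checkpoint genes were split in direction. Of 21 tested, 9 were negative, the median was 0.12 and 0 passed in edgeR. At an unadjusted p under 0.05 there were 2, both lower, against 17.01% of all genes in both directions. DESeq2 and limma-voom with sample weights, which called 1368 and 1589 genes in all, called 1 each. That was Rbpj, the DNA-binding partner of Notch, at 23.3, 13.6 and 14.8 CPM in HDAC1-cKO against 36.6, 28.7 and 34.3 CPM in WT (-0.94 ± 0.23, SE, adjusted p = 0.0801 in edgeR). Prdm1 (BLIMP-1), which drives effector differentiation, was counted at 22.0, 10.6 and 25.1 against 34.2, 32.6 and 33.1 CPM (-0.80 ± 0.29, SE, adjusted p = 0.206 in edgeR). Without HDAC1-cKO replicate 2, 17 of 21 were negative and the median was -0.19. With all libraries the median was -0.13 with limma-voom with sample weights, where 16 were negative, and -0.0093 on log2(FPKM + 0.1), so its sign was not settled.

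HDAC1-cKO replicate 2 differed from replicates 1 and 3 in single members, some higher and some lower, while their median difference was near that of all genes. Relative to the mean of the other HDAC1-cKO libraries, 5 of 10 members were higher, 1 of them by over 1 log2 unit. Over all genes 7.26% exceeded 1, and the median was 0.02 for the members and for all genes. With the GC trend removed, 4 of 10 members were higher, and the medians were -0.10 for the members and 0.03 for all genes. The log2 CPM of Pdcd1 was 1.39 higher in replicate 2. Ctla4 stood at -0.91, Havcr2 at -0.89, Icos at -0.63 and Cd28 at -0.54 on the same scale. With the GC trend of each library removed, a setting added after seeing the data, these 5 values were 1.16, -0.54, -0.67, -0.28 and -0.09. All 5 differences thus shrank in size with the GC trend removed, and those of Pdcd1, Ctla4 and Havcr2 stayed over 0.5. Btla moved from 0.46 to 0.94 and Cd160 from 0.60 to 0.84.

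Of the Tfh markers, some were high in the same library. The list holds the members Pdcd1, Icos, Btla and Cd200. Of 11 tested, 3 were lower there (Icos, Il21 and Cd200), and 5 exceeded the mean of the other HDAC1-cKO libraries by over 1 log2 unit, as did 7.26% of all genes. With the GC trend removed 5 did so as well, 4 of them the same genes, and 6.97% of all genes. The Tfh regulator Bcl6 was counted at 18.5, 53.9 and 18.1 CPM in HDAC1-cKO replicates 1, 2 and 3 and at 27.2, 26.5 and 29.8 CPM in WT. The follicle-homing receptor gene Cxcr5 was counted at 40.7, 137 and 54.6 CPM against 87.6, 101 and 65.3 CPM. For both genes replicate 2 was the highest of the 6 libraries, and replicates 1 and 3 were the lowest. Among 21 regulators, 7 were over 1 log2 unit higher in replicate 2 and 5 with the GC trend removed. These include Tcf7 at 146, 432 and 154 CPM and Id3 at 38.8, 139.7 and 48.1 CPM in HDAC1-cKO, factors of memory and Tfh cells. Prdm1 was -1.14 and Tbx21, the Th1 master regulator, -1.24 relative to the other HDAC1-cKO libraries. Il2ra, the alpha chain of the IL-2 receptor and a listed regulatory T cell marker, was counted at 289.6, 124 and 325 CPM. Most of that list went the other way, with 6 of 9 tested genes higher in replicate 2 and a median of 0.14. As 1 library shows this pattern, it has no replicate check. Markers of B or plasma cells were higher in the same library, with 8 of 10 positive, 4 over 1 log2 unit and a sum of 74.1 CPM against 39.2 and 43.2 CPM in HDAC1-cKO replicates 1 and 3. With the GC trend removed 9 were positive and 4 over 1, and the part of such cells in the pattern was not tested. Foxp3, which defines regulatory T cells, stood at 0.147 to 3.00 CPM over the 6 libraries and Lrrc32 at 0 counts. Bcl6, Cxcr5, Pou2af1, Il21, Tcf7, Id3, Tbx21, Nr4a2, Il2ra, Cd3e, Vsir, Cd5 and Cd101 were named after their values were seen.

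**Figure D5:**
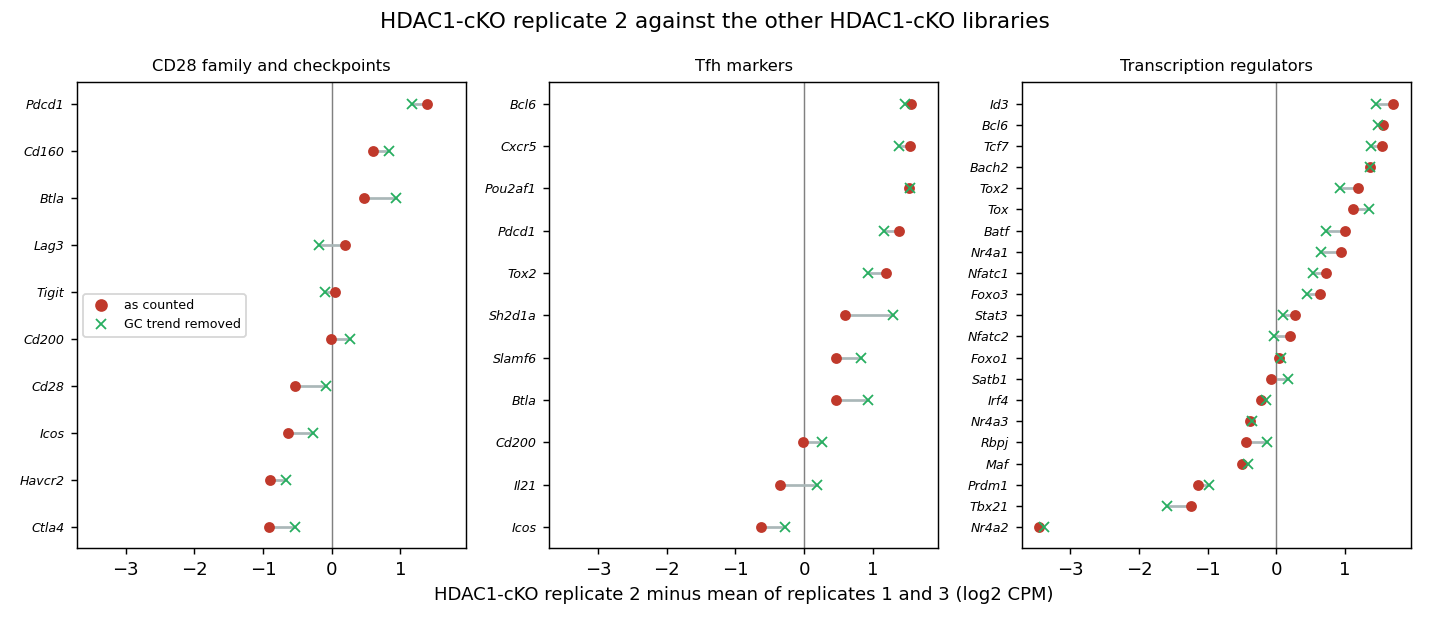
Log2 CPM in HDAC1-cKO replicate 2 minus the mean of replicates 1 and 3, for the 10 members, the tested Tfh markers and the transcription regulators, as counted (circle) and with each library's GC trend removed (cross). Pdcd1, Bcl6, Cxcr5, Pou2af1, Id3 and Tcf7 lie above 1 in both, and Prdm1, Tbx21 and Nr4a2 lie below -0.9.

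Members varied together in groups across the 6 libraries, which share depth, base composition and genotype with every gene compared. Among 45 pairs, the Pearson r of log2 CPM was highest for Icos with Havcr2 (0.97) and Icos with Ctla4 (0.95). In deviations from the genotype means these 2 values were 0.94 and 0.92, and with the GC trend removed 0.83 and 0.96. Within genotypes, Btla ran against Havcr2 at -0.97 and against Icos at -0.87, and at -0.95 and -0.73 with the GC trend removed. Pdcd1 ran against Icos at -0.82, and at -0.58 with the GC trend removed. The genes most like Btla among 7381 protein-coding genes of at least 10 CPM were Gtpbp1, Cd2 and Fam102a, with r of 0.99 over 6 libraries. An r over 0.95 with Btla was reached by 102 genes. Cd2, an adhesion receptor of T cells, fell by 0.65 ± 0.11 and Fam102a by 1.239 ± 0.21 on the log2 scale, while Gtpbp1, a GTP-binding protein, differed by -0.39 ± 0.12 (SE, adjusted p = 0.0310, 0.0323 and 0.153 in edgeR). As these genes were chosen for their likeness to Btla over the same 6 libraries, genotype included, their lower level is no separate result. The calls of Cd2 and Fam102a ended whenever a library other than HDAC1-cKO replicate 2 was left out (adjusted p up to 0.137 and 0.136 in edgeR). Those fits held 26 to 49 calls over all genes, against 306 with all libraries.

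The genes next to Btla on chromosome 16 did not pass the test. Atg3, an autophagy enzyme 35.8 kb away, differed by -0.61 ± 0.13 and Slc35a5, a nucleotide sugar transporter, by -0.37 ± 0.29 log2 units (SE, adjusted p = 0.0605 and 0.581 in edgeR). On the other side lay the member Cd200, 124 kb away, and Abhd10 at 0.17 ± 0.18 (SE, adjusted p = 0.717 in edgeR). Cd28, Ctla4 and Icos lie in this order on chromosome 1, with 114 kb between Cd28 and Ctla4 and 62.1 kb between Ctla4 and Icos, and HDAC1-cKO replicate 1 was the highest HDAC1-cKO library for all 3.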

How the data were processed

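Libraries of 500 sorted cells were made by Smart-seq2 and a transposase kit and sequenced as 50-base single reads, per the labels' protocols. The authors deposited raw counts per gene and FPKM for 6 libraries. The deposited FPKM equalled counts times 1 constant per gene, divided by the DESeq2 size factor of the library. Per the submitters' processing notes, STAR 2.5.2b, Picard 2.19.2, R 3.6.1 and DESeq2 1.24.0 were used and GRCm38/mm10 and GRCh38/hg38 named. Counter, strand setting and treatment of multiply mapped reads were not given in the sources used here. Gene locations in the deposited table equal GENCODE M21 for 55450 of 55536 genes.

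Groups were taken from the labels. Counts were filtered with filterByExpr, scaled by TMM and tested in edgeR 4.0.16 (R 4.3.3) with the robust quasi-likelihood F test, two-sided, genotype as the only term, and Benjamini-Hochberg adjustment over 15519 genes. The fit was tested on simulated data. CPM use TMM-scaled totals. Replicates are separate pools of 2 mice per the series text, and without molecular identifiers counts are not independent molecules. Alternatives used limma 3.58.1, DESeq2 1.42.0, other scalings and filters, a replicate block, GC offsets and leaving out libraries. Python 3.11.15 with matplotlib 3.10.9 drew the figures.

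The members and the 5 gene lists and 6 marker lists were chosen with earlier results of these data known. Marchf1 was matched as March1 and Cd244 as Cd244a. Named were all members, Hdac1, called list genes or, under 2 of these, the lowest-p genes up to 2, neighbours of called members, and the 3 genes most like Btla; others are said to be named after their values were seen. At most 4.74% of the 50-base stretches of a named member or called list gene (Lcp2) recur in other genes, and 4.37% for Tigit.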

Additional observations from a re-analysis of the deposited data

How the results depend on the processing

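Over all genes the 306 calls became 1368 with DESeq2, 1589 with limma-voom with sample weights, 501 with GC offsets, 818 and 24 at adjusted p under 0.10 and 0.01, and 26 to 626 without 1 library, the highest without HDAC1-cKO replicate 2, which kept 280 of the 306. The 1 member called became 2 with DESeq2 and with limma-voom (Btla and Cd28), 0 with GC offsets and at 0.01, and 0 to 1 without 1 library. With the replicate number as a block, 65 genes and 0 members were called (Btla adjusted p = 0.0569), and of the 6 called genes in the 5 pathway lists Trat1 alone passed (Lcp2 adjusted p = 0.103). Same-numbered libraries of the 2 genotypes correlated at 0.21, 0.02 and -0.13 in their deviations, and the other pairs at -0.18 to 0.20. With so few libraries this does not settle whether the numbers mark pairs. Btla kept its direction in all settings and its call in 11 of 13 that used all libraries. The Pdcd1 fold change turned to -0.406 with limma-voom, -0.0755 on log2(FPKM + 1), -0.0774 on log2(FPKM + 0.1), -0.0828 with the block and -0.0472 with GC offsets, and ran from -0.553 to 0.321 without 1 library. Lag3, at zero, turned to 0.0350 with upper-quartile scaling, 0.0553 with total counts, 0.0126 with the 10 CPM filter and 0.00430 with the block, and ran from -0.0807 to 0.101 without 1 library. Cd200 ran from -0.0425 to 0.655 without 1 library. Ranked by CPM in place of FPKM, 3 members kept their rank. The causes were not tested. With 3 libraries a group, uncalled members are bounded only by their intervals.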
